A study of Mus musculus with 8 samples.

Results

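The 7 genes described here, *Otx2*, *Pou3f1*, *Pou2f2*, *Foxd3*, *Sall2*, *Car14* and *Grhl2*, are known from the formative state of pluripotency and were followed in epiblast-like cells (EpiLCs). They were taken by gene symbol from the 54281 genes of the deposited tables. Each symbol stood in 1 row, and all 7 genes were among the 17272 genes that passed the filter on low counts. RNA-seq had been made from 4 *Tet1* KO lines (KO15, KO25, KO1 and KO9) and 4 wild type (WT) lines (WT12, WT34, WT7 and WT17), each line giving 1 library. All lines were male embryonic stem cell (ESC) lines derived from blastocysts of the (B6 × 129S6)F1-*Tet1*tm1Koh mouse strain. By the methods, KO and WT lines came in littermate pairs, but the labels do not give the partner of a line. The lines had been adapted for at least 5 passages to the naive medium 2iL and then kept for 2 days on fibronectin in N2B27 with bFGF (12 ng/ml) and KOSR (1%), without Activin A. Each line was sequenced once, so the p-values measure a spread in which line, culture and library cannot be separated. The titles WT12 and WT17 belong to samples whose cell line labels read WT9 and WT12. Samples are named here by title, and all of these names are WT.

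The columns of the tables also carry a suffix, b2 or b1, which the labels and the methods do not explain. The suffix b2 was given to KO15, KO25, WT12 and WT34, and the suffix b1 to KO1, KO9, WT7 and WT17, so that each suffix holds 2 KO and 2 WT lines. Libraries held between 13916576 and 23680839 estimated counts, between 13916576 and 23680839 for b2 and between 18430028 and 20917851 for b1. Mitochondrial transcripts took 2.02 to 2.81% of the counts in b2 libraries and 1.36 to 1.99% in b1 libraries. *Tet1* had 53.5, 54.2, 45.3 and 38.4 counts scaled to library size (CPM) in KO15, KO25, KO1 and KO9, against 559, 851, 816 and 775 CPM in WT12, WT34, WT7 and WT17. The targeted gene was thus low in every library labelled KO. On the TPM scale, which also divides by transcript length, the gap was narrower, with 26.8 ± 5.43 TPM in KO lines and 81.2 ± 14.2 TPM in WT lines (SD, n = 4 each), and there *Tet1* did not pass limma's test (adjusted p = 0.0843).

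Formative pluripotency is the state between the naive cells of the blastocyst and the primed epiblast that is about to form germ layers. Cells that enter it silence naive genes, gain DNA methylation and move their transcription machinery to another set of enhancers. OTX2, FOXD3 and GRHL2 are transcription factors known for acting at those enhancers, in mouse cells leaving the naive state. POU3F1, also called OCT6, and POU2F2, also called OCT2, are POU factors that bind the octamer motif. SALL2 is a zinc finger factor of the spalt family, and *Car14* encodes a membrane-bound carbonic anhydrase, an enzyme that interconverts carbon dioxide and bicarbonate. TET1 oxidizes 5-methylcytosine, which in mammals lies mostly at CG dinucleotides.

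The genes lie on 5 mouse chromosomes, given here for build mm10 with GENCODE M21. *Foxd3* (chr4:99656299-99658622, plus strand) and *Pou3f1* (chr4:124656807-124660655, plus strand) are genes of 1 exon. *Otx2* lies at chr14:48657677-48673819, *Sall2* at chr14:52311172-52328762, *Pou2f2* at chr7:25087344-25179726 and *Car14* at chr3:95897768-95904691, all on the minus strand. *Grhl2* lies at chr15:37233036-37363569 on the plus strand. *Car14* shares exon sequence with *Aph1a* on the opposite strand. *Aph1a* had 5000 counts over the 8 libraries against 1206 for *Car14*. The libraries were stranded, but the strand setting of the quantification was not given in the sources used here, so the level of *Car14* is uncertain to that degree.

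RefSeq promoter windows on build GRCm38.p6 were matched for 5 of the 7 genes, with 9 windows in all. The windows of *Foxd3* and *Sall2* are shown because these genes differed between the suffixes and because their CG content lies far apart. *Foxd3* has 1 annotated start (chr4:99656049-99656348, plus strand). *Sall2* has one upstream start (chr14:52328621-52328920, minus strand) and another further inside the gene (chr14:52316274-52316573, minus strand). Capitals mark CG dinucleotides, and each sequence reads 5′ to 3′ along the gene.
Foxd3: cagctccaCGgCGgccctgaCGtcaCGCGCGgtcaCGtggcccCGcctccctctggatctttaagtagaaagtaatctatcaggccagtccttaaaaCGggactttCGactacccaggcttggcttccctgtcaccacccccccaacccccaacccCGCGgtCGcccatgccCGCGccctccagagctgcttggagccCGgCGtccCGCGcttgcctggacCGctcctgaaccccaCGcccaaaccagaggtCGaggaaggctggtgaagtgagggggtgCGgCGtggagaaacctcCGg
Sall2 start 1: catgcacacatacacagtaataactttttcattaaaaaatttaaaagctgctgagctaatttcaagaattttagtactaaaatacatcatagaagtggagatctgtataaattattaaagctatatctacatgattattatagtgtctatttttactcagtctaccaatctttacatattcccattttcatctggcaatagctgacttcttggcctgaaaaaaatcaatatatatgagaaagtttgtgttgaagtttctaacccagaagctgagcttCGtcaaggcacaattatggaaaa
Sall2 start 2: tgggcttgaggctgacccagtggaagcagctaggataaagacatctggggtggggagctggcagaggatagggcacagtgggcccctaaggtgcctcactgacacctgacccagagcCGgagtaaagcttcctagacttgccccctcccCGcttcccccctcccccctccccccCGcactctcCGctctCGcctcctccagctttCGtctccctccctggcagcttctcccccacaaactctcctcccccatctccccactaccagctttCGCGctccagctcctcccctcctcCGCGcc
The *Foxd3* window holds 25 CG dinucleotides, a number reached by 18.4% of the 32851 windows of the same length, whose median was 7. The window at the first *Sall2* start holds 1 CG, and 94.6% of windows hold at least as many. The window at the second start holds 10, which 43.5% of windows reach. The OTX motif TAATCC, searched on both strands and present in 7.06% of all windows, was found in 1 of the *Otx2* windows and in the *Car14* window. The octamer ATGCAAAT (1.74% of all windows), the grainyhead motif AACCGGTT (0.146%) and the forkhead motif TGTTTAC (3.65%) were not found in the 9 windows. A match or its absence is a description of these letters only.

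Levels of different genes were compared in TPM, and the order ran from *Pou3f1* to *Car14*. *Pou3f1* averaged 22.6 ± 9.74 TPM over the 8 lines and *Otx2* 22.5 ± 6.06 TPM (SD, n = 8). *Grhl2* followed with 12.1 ± 2.33 TPM and *Sall2* with 8.51 ± 3.29 TPM. *Foxd3* had 3.44 ± 3.35 TPM, *Pou2f2* 3.01 ± 1.09 TPM and *Car14* 2.66 ± 2.05 TPM. Neighbours in this order were compared within each line on log2(TPM + 1) by a two-sided exact sign-flip permutation test, adjusted over the 6 pairs of neighbours. *Otx2* exceeded *Grhl2* in 8 of 8 lines, by 0.82 on the log2 scale (exact test, adjusted p = 0.0469). *Sall2* exceeded *Foxd3* in 7 of 8 lines, by 1.40 (exact test, adjusted p = 0.0469). The pairs were set by the order of these same values. The smallest unadjusted p that 8 lines allow is 0.0078, and both calls were lost when most single lines were left out (adjusted p of 0.0469 to 0.0938). With 1 line fewer the smallest p of this test is larger, so the losses cannot be told from the fewer lines. The differences kept their sign, at 0.74 to 0.92 for *Otx2* over *Grhl2* and 1.24 to 1.69 for *Sall2* over *Foxd3*. *Grhl2* exceeded *Sall2* in 7 of 8 lines by 0.52 without passing (exact test, adjusted p = 0.0625). *Pou3f1* and *Otx2* (−0.06, adjusted p = 0.828), *Foxd3* and *Pou2f2* (−0.20, adjusted p = 0.684) and *Pou2f2* and *Car14* (0.26, adjusted p = 0.410) did not differ beyond their spread in this exact test.

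The genes varied to very different degrees among the 8 lines. The SD of log2(CPM + 0.5) was 1.63 for *Foxd3*, and 0.289% of the genes tested varied at least as much. It was 0.81 for *Car14* (2.79% of genes), 0.59 for *Pou3f1* (8.02%) and 0.57 for *Sall2* (8.89%). *Otx2* (0.35) and *Pou2f2* (0.32) lay nearer to the median of all genes, 0.27. *Grhl2*, with 0.15, varied less than most, since 79.8% of genes had at least that SD.

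**Figure D1:**
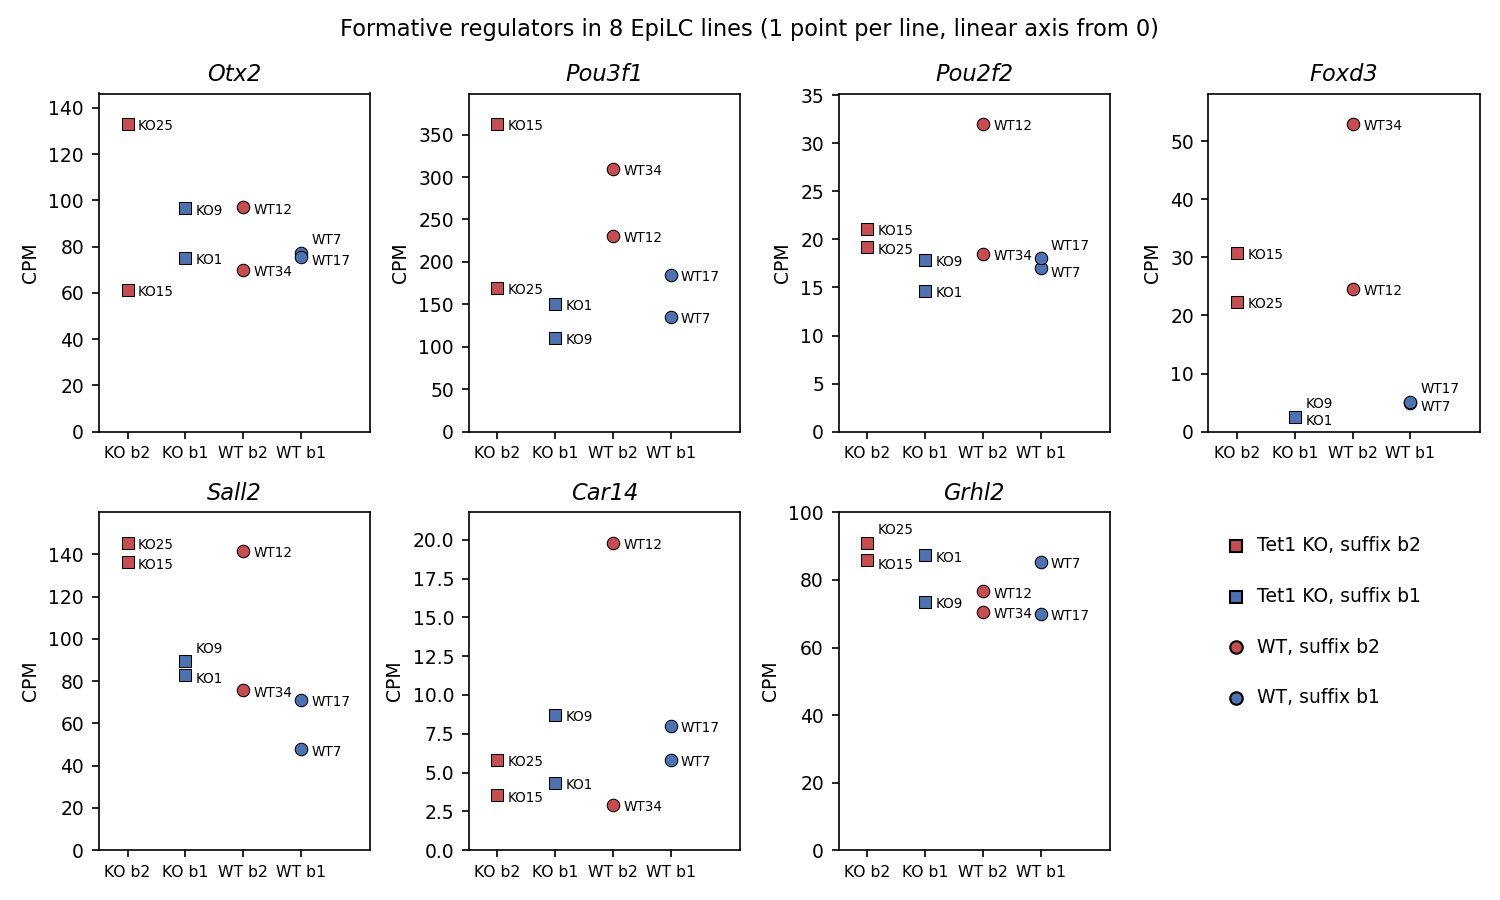
CPM of the 7 genes in each EpiLC line, 1 panel per gene on a linear axis from 0. Squares are *Tet1* KO lines and circles WT lines, and columns separate suffix b2 (red) from b1 (blue). The 4 b2 lines of *Foxd3* sit between 22.4 and 52.9 CPM and the 4 b1 lines between 2.58 and 5.13 CPM.

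KO was compared with WT to ask whether loss of TET1 altered these genes in EpiLCs. None of the 7 genes was called (edgeR's quasi-likelihood test, Benjamini-Hochberg adjusted p under 0.05), against 7 of 17272 genes, or 0.0405%, over the whole table. At an unadjusted p under 0.05 the number was also 0 of 7, with a smallest p of 0.142, and DESeq2 and limma called 0 of 7 as well. With the suffix as a block edgeR again called 0 of 7 members, beside 0.162% of all genes. In that fit 2 of 7, *Foxd3* and *Sall2*, had an unadjusted p under 0.05, with a smallest edgeR p of 0.0150. The share of all genes at an unadjusted p under 0.05 is not given here. The median log2 fold change of the 7 genes was −0.12, beside −0.004 for all genes tested. For no member were KO and WT lines separated without overlap, which was the case for 4.19% of all genes.

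b2 was compared with b1 with genotype in the model, since each suffix holds lines of both genotypes. *Foxd3*, *Pou3f1* and *Sall2* were higher in b2, and no member was lower. These 3 of 7 calls stand beside 24.6% of all genes called, 13.7% higher and 11.0% lower. When an absolute log2 fold change above 1.5 was also asked for, 1 of 7 members was called, *Foxd3*, beside 2.11% of all genes. All 7 log2 fold changes were positive, with a median of 0.42 beside 0.008 for all genes tested, but *Otx2* and *Car14* turned negative in limma on TPM and *Grhl2* with library size alone. b2 lay above b1 without overlap in 2 of 7 genes, *Foxd3* and *Pou2f2*, and in 13.9% of all genes. The interaction of genotype and suffix was called for 0 of 7 members by edgeR, and for 0 of 17272 genes over the whole table. Of the members, 0 of 7 had an unadjusted p under 0.05. As the test called no gene at all, it says nothing particular about these members.

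**Figure D2:**
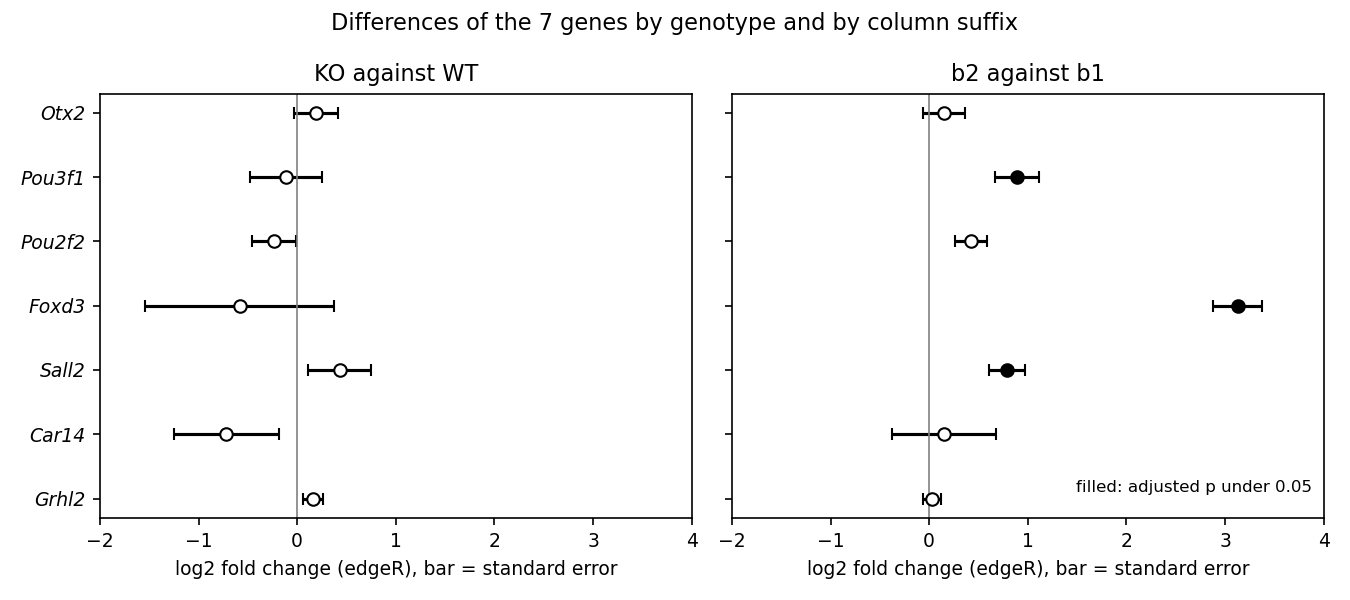
Log2 fold changes from edgeR with their standard errors, for KO against WT on the left and b2 against b1 on the right. Filled points have an adjusted p under 0.05. No gene is filled on the left, and *Foxd3* (3.13), *Pou3f1* (0.89) and *Sall2* (0.79) are filled on the right.

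*Foxd3*, a forkhead factor needed by the epiblast, had the widest range. It had 30.8, 22.4, 2.58 and 2.61 CPM in KO15, KO25, KO1 and KO9, against 24.5, 52.9, 5.00 and 5.13 CPM in WT12, WT34, WT7 and WT17. By suffix this was 32.6 ± 14.0 CPM in b2 lines and 3.83 ± 1.43 CPM in b1 lines (SD, n = 4 each). Every b2 line lay above every b1 line, in both genotypes. On the log2 scale b2 exceeded b1 by 3.13 (SE 0.25, edgeR adjusted p = 1.23e-04), and 32 of the genes tested (0.185%) were higher in b2 by at least this much. It was 3.35 within KO lines (adjusted p = 5.49e-04) and 2.91 within WT lines (adjusted p = 0.0267). *Foxd3* remained called under all 19 alternatives examined, where its adjusted p ran from 2.81e-88 to 0.0267.

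For genotype, the *Foxd3* log2 fold change was −0.58 (SE 0.96, edgeR adjusted p = 0.998) when both suffixes were pooled. Within b1 both KO lines, at 2.58 and 2.61 CPM, lay below both WT lines, at 5.00 and 5.13 CPM. KO against WT there gave −0.97 on the log2 scale (adjusted p = 0.272), while within b2 it was −0.52 (adjusted p = 0.999) and the groups overlapped. With the suffix as a block it was −0.71 (SE 0.24, unadjusted p = 0.0150, adjusted p = 0.296), which is not a call. Without WT34 the sign of the pooled value turned, to 0.32. The lowest library held 52 counts of the gene and the highest 747.

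*Otx2*, a homeobox factor of the epiblast and later of the anterior head, had 61.2, 133, 75.0 and 96.5 CPM in KO15, KO25, KO1 and KO9. In WT12, WT34, WT7 and WT17 it had 97.0, 69.9, 77.5 and 75.5 CPM. The highest and the lowest library were both KO lines of suffix b2, KO25 and KO15, and the groups overlapped widely. The log2 fold change was 0.19 for KO against WT (SE 0.22, edgeR adjusted p = 0.998) and 0.15 for b2 against b1 (SE 0.21, edgeR adjusted p = 0.638).

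*Grhl2*, a grainyhead factor that opens enhancers of epithelial genes, was the steadiest of the 7. It had 85.8, 91.0, 87.3 and 73.5 CPM in KO15, KO25, KO1 and KO9, against 76.6, 70.5, 85.3 and 70.0 CPM in WT12, WT34, WT7 and WT17. The levels spanned 1.30-fold over all lines. The log2 fold change was 0.16 for KO against WT (SE 0.10, edgeR adjusted p = 0.989) and 0.03 for b2 against b1 (SE 0.09, edgeR adjusted p = 0.843).

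*Pou3f1*, a POU factor that is known to promote neural fate in mouse epiblast cells, had 362, 170, 151 and 111 CPM in KO15, KO25, KO1 and KO9. In WT12, WT34, WT7 and WT17 it had 231, 309, 135 and 185 CPM. By suffix the means were 268 ± 84.9 CPM in b2 lines and 145 ± 31.0 CPM in b1 lines (SD, n = 4 each). The sets touched only through KO25 of b2, which lay below WT17 of b1. On the log2 scale b2 exceeded b1 by 0.89 (SE 0.23, edgeR adjusted p = 0.0189). This call was lost without KO9 (adjusted p = 0.0723), without WT7 (0.0634) or without WT34 (0.0502), and in limma on TPM (0.0617). It was 1.02 within KO lines (adjusted p = 0.0774) and 0.74 within WT lines (0.0994), in neither case a call. Over all alternatives the adjusted p ran from 1.01e-25 to 0.127. KO against WT gave −0.12 (SE 0.37, edgeR adjusted p = 0.998).

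*Pou2f2*, a POU factor best known from B lymphocytes, was expressed at a lower level. It had 21.1, 19.2, 14.6 and 17.9 CPM in KO15, KO25, KO1 and KO9, against 32.0, 18.5, 16.99 and 18.1 CPM in WT12, WT34, WT7 and WT17. WT12 stood apart from all other lines. In CPM the 4 b2 lines lay just above the 4 b1 lines, with 18.5 CPM in WT34 of b2 and 18.1 CPM in WT17 of b1 as nearest neighbours. In TPM the sets overlapped, at 1.97 to 5.62 TPM in b2 and 2.59 to 2.80 TPM in b1. Between b2 and b1 the log2 fold change was 0.42 (SE 0.16, edgeR adjusted p = 0.0871). It was called without WT34 (adjusted p = 0.0273) and without the filter on low counts (0.0209), over alternatives whose adjusted p ran from 0.0209 to 0.715. Without WT12 it was 0.21 (adjusted p = 0.202). KO against WT gave −0.24 (SE 0.22, edgeR adjusted p = 0.998).

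*Sall2*, the spalt factor, had 136, 145, 82.8 and 89.4 CPM in KO15, KO25, KO1 and KO9, against 142, 75.6, 47.7 and 70.9 CPM in WT12, WT34, WT7 and WT17. By suffix the means were 125 ± 32.9 CPM in b2 lines and 72.7 ± 18.3 CPM in b1 lines (SD, n = 4 each). WT34 was the b2 line that fell among the b1 lines. b2 against b1 gave a log2 fold change of 0.79 (SE 0.18, edgeR adjusted p = 0.0130). It was 0.70 within KO lines (adjusted p = 0.00810) and 0.86 within WT lines, where it was not called (adjusted p = 0.184). limma on TPM did not call it either (adjusted p = 0.0898), and over all alternatives the adjusted p ran from 1.58e-16 to 0.184.

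For genotype, *Sall2* had a log2 fold change of 0.43 (SE 0.32, edgeR adjusted p = 0.998). It was 0.80 without WT12 and 0.24 without WT7, neither of them called. With the suffix as a block it was 0.45 (SE 0.18, unadjusted p = 0.0343, adjusted p = 0.373), again not a call. Within b1 both KO lines, at 82.8 and 89.4 CPM, lay above both WT lines, at 47.7 and 70.9 CPM. Within b2 the lines overlapped through WT12.

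*Car14*, the carbonic anhydrase, had the lowest mean TPM of the 7 and turned on 1 line. It had 3.53, 5.84, 4.31 and 8.72 CPM in KO15, KO25, KO1 and KO9, against 19.8, 2.90, 5.83 and 8.01 CPM in WT12, WT34, WT7 and WT17. WT12 and WT34, the highest and the lowest line, share genotype and suffix. The log2 fold change of KO against WT was −0.72 (SE 0.53, edgeR adjusted p = 0.998), and without WT12 it was −0.01. For b2 against b1 it was 0.15 (SE 0.53, edgeR adjusted p = 0.861), and without WT12 it was −0.78 (adjusted p = 0.103). Its libraries held 41 to 475 counts of the gene.

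How the genes varied together was described within 4 pairs of lines that share genotype and suffix. No correlation over the 8 lines is given, because the lines form separate sets by suffix. Differences in this description are on the log2(CPM + 0.5) scale, which understates those of genes at a few CPM. In KO15 against KO25 the difference was −1.11 for *Otx2* and 1.09 for *Pou3f1*. Only 2.54% and 2.76% of all genes lay at least that far apart in this pair. In KO1 against KO9 it was −0.36 for *Otx2* and 0.44 for *Pou3f1*. In WT12 against WT34 it was 0.47 for *Otx2* and −0.42 for *Pou3f1*, and in WT7 against WT17 it was 0.04 and −0.45. *Otx2* and *Pou3f1* thus went in opposite directions in 4 of 4 pairs, although the *Otx2* difference in the last pair was near 0.

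Among the 21 pairs of genes, 2 went in opposite directions in all 4 pairs of lines and 1 in the same direction. No such count over pairs of other genes stands beside these numbers, so they are not read as covariation of the members. The other opposed pair was *Foxd3* and *Grhl2*, although the *Foxd3* difference was near 0 in KO1 against KO9 (−0.01) and in WT7 against WT17 (−0.03), and the concordant pair was *Sall2* and *Car14*. *Car14* was higher in WT12 than in WT34 by 2.58 on that scale, a distance that 0.214% of all genes reached. In the same pair *Sall2* was higher by 0.90 and *Pou2f2* by 0.78 in WT12, and *Foxd3* was lower by 1.09 on the log2 scale (log2 difference −1.09). In WT7 against WT17 no member was among the 5% of genes that lay farthest apart, and *Sall2* had the largest difference of the 7, −0.57. These are single libraries, so the differences have no replicate check.

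**Figure D3:**
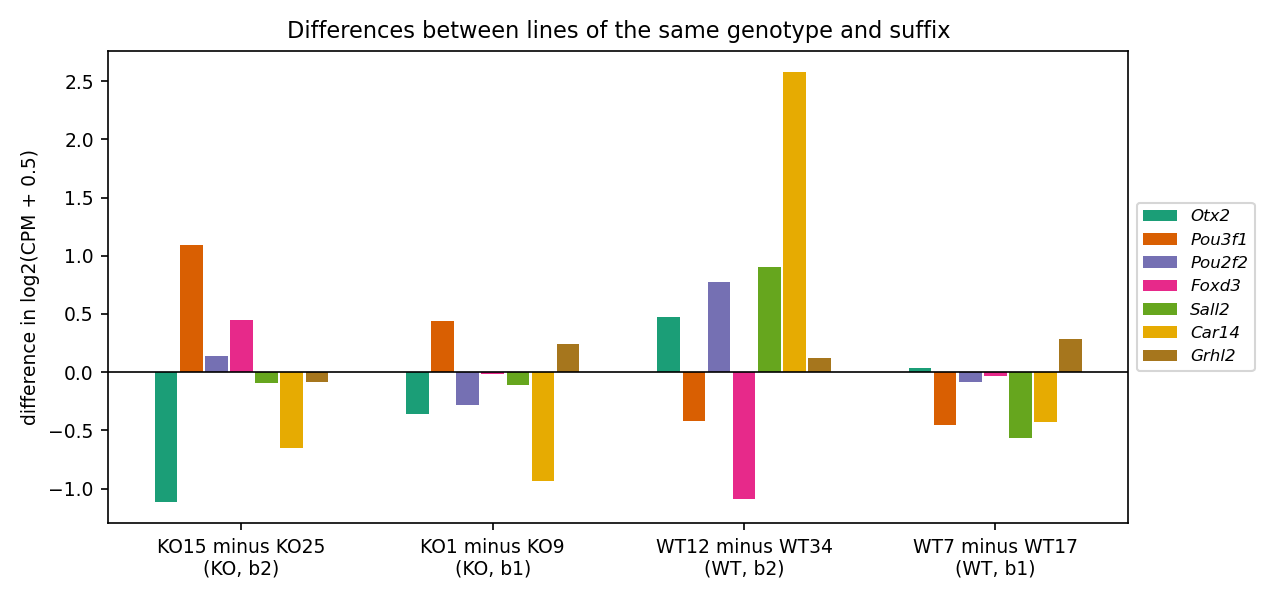
Difference in log2(CPM + 0.5) of the 7 genes between 2 lines of the same genotype and suffix, with the KO pairs left of the WT pairs. Bars above 0 are higher in the line named first. *Otx2* and *Pou3f1* point in opposite directions in each pair, and *Car14* has the tallest bar, 2.58, in WT12 minus WT34.

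For the 3 genes called between the suffixes, the most similar profiles were sought among 10633 other genes of at least 1 TPM. Likeness was the root mean squared difference of log2(CPM + 0.5) over the 8 lines, each gene centred on its mean. *Zfp628* (0.35) and *Myc* (0.39) were most like *Foxd3*, whose own root mean square was 1.53. *Myc*, a growth-promoting transcription factor, had 75.3, 53.6, 10.0 and 8.62 CPM in KO15, KO25, KO1 and KO9, against 39.0, 81.1, 9.46 and 11.0 CPM in WT12, WT34, WT7 and WT17. As with *Foxd3*, all b2 lines lay above all b1 lines. *Slc35a4* and *Gemin4* were most like *Pou3f1*, both with 0.12 against its own 0.55. *Samd4* (0.21) and *Plch1* (0.22) were most like *Sall2*, whose own value was 0.53. On log2(TPM + 1) the same distances were 0.51 for *Zfp628*, 0.25 for *Myc*, 0.22 for *Slc35a4*, 0.34 for *Gemin4*, 0.53 for *Samd4* and 0.23 for *Plch1*, so the likeness of *Samd4* to *Sall2* was not kept there. The likeness was computed on the lines that carry the suffix difference and describes these 8 libraries only.

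Of 19 other formative and primed genes, all were tested, and 9 were higher and 1 lower in b2, with a median log2 fold change of 0.44, beside 13.7% of all genes higher and 11.0% lower. *Zic5* (1.08, edgeR adjusted p = 7.45e-05) and *Zic2* (0.79, edgeR adjusted p = 3.26e-04) encode zinc finger factors of the epiblast and neural ectoderm. *Tdgf1*, the NODAL co-receptor Cripto, was higher by 2.10 (edgeR adjusted p = 0.00318), and its reads may be shared with its pseudogenes. *Dnmt3a*, a de novo DNA methyltransferase, was higher by 0.56 (edgeR adjusted p = 0.00839). Between KO and WT edgeR called 0 of the 19 genes, of which 3 had an unadjusted p under 0.05, and the median was 0.08. The 3 were *Slc7a3* (0.32) and *Igfbp2* (0.24), higher in KO, and *Trh* (−1.73), lower in KO. With the suffix as a block further genes reached that level. *Tdgf1* (−1.25, edgeR unadjusted p = 0.00528) and *Zic5* (−0.23, unadjusted p = 0.0163) were lower in KO. *Lef1* (0.66, edgeR unadjusted p = 0.0188) and *Etv4* (0.36, unadjusted p = 0.0487) were higher in KO. None of them was called (edgeR adjusted p of 0.224 to 0.416). The summed level of the list was 1537 to 1690 TPM in b2 lines and 1276 to 1386 TPM in b1 lines. *Dnmt3a* alone took 267 to 421 TPM of that sum in b2 lines and 241 to 274 TPM in b1 lines.

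Of 20 paralogs of the 7 genes, 14 were tested, and 4 were higher and 0 lower in b2 by edgeR, with 0 lower at an unadjusted p under 0.05 as well. Of all genes 24.6% were called, 13.7% higher and 11.0% lower. Of the 4, 3 were the other spalt genes. *Sall4*, a pluripotency factor, was higher by 0.86 (edgeR adjusted p = 3.47e-05), *Sall1* by 0.64 (adjusted p = 4.47e-04) and *Sall3* by 3.29 (adjusted p = 0.00132) on the log2 scale. *Sall3* averaged 0.475 TPM, a low level. *Car2*, a cytosolic carbonic anhydrase, was higher by 0.69 (adjusted p = 0.00823). The paralogs of *Otx2*, *Pou3f1*, *Pou2f2*, *Foxd3* and *Grhl2* that were tested did not pass. Between KO and WT edgeR called 0 of the 14 paralogs, with 1 at an unadjusted p under 0.05. This was *Otx1*, higher in KO without overlap in CPM (1.78, edgeR unadjusted p = 0.00101, adjusted p = 0.349). *Otx1* averaged 0.200 TPM, a low level. With the suffix as a block it gave 1.75 (edgeR unadjusted p = 3.89e-04, adjusted p = 0.0989), again without a call. In that fit *Pou3f2* (0.89) also had an unadjusted p under 0.05, without a call (edgeR unadjusted p = 0.0430, adjusted p = 0.400).

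Of 16 epithelial genes linked to GRHL2, 14 were tested, and 8 were lower and 1 higher in b2, with a median log2 fold change of −0.47, beside 11.0% of all genes lower and 13.7% higher. *Cldn4*, a tight junction claudin, was lower (−0.46, edgeR adjusted p = 0.00132), as were *Cgn*, the junction protein cingulin (−0.49, adjusted p = 0.00262), and *Ovol2*, an epithelial transcription factor (−0.87, adjusted p = 0.00301). *Esrp2*, an epithelial splicing regulator, was higher, with a mean of 12.2 CPM in b2 lines and 5.36 CPM in b1 lines (edgeR adjusted p = 0.00315). This call was lost in limma on TPM (adjusted p = 0.334), within KO lines (0.0541) and within WT lines (0.0696), and KO25 of b2, at 1.41 TPM, lay below every b1 line in TPM. *Grhl2* itself differed by 0.03 between the suffixes. With genotype alone in the model, edgeR called 0 of the 14 epithelial genes between KO and WT, also at an unadjusted p under 0.05. With the suffix as a block, *Esrp2* (−0.71, edgeR unadjusted p = 0.00551) and *Epcam* (0.18, unadjusted p = 0.0284) reached that level. Neither was called (edgeR adjusted p = 0.226 and 0.357).

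**Figure D4:**
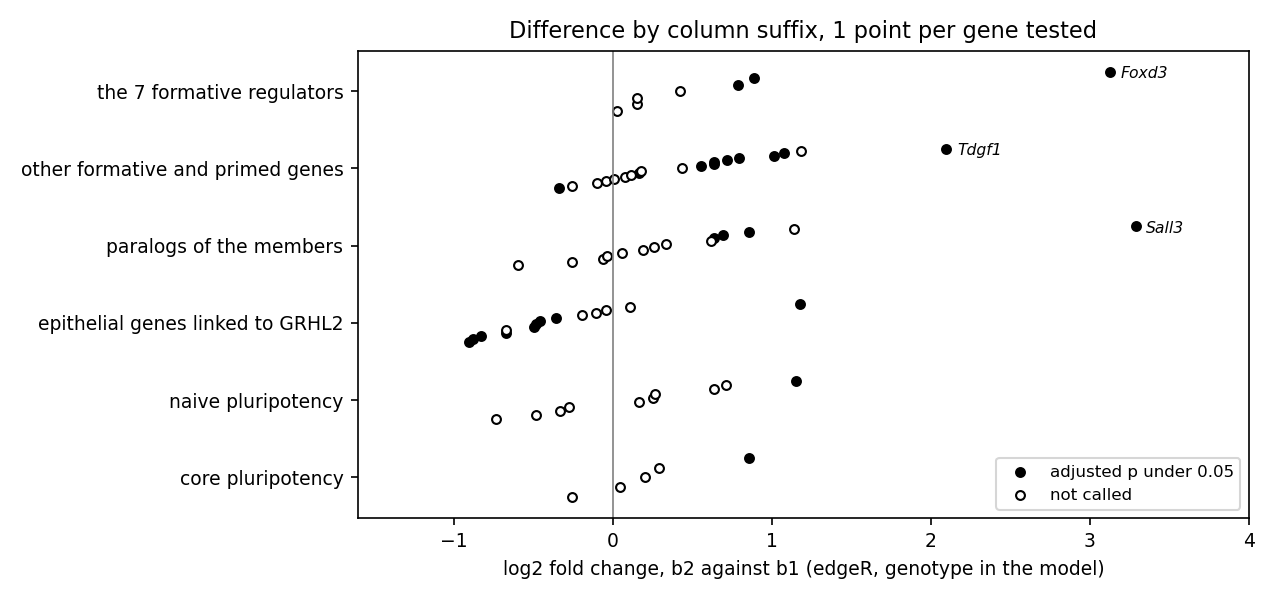
Log2 fold change of b2 against b1 for each gene tested, by list, with filled points for an adjusted p under 0.05. Genes are spread vertically within a list by the size of the difference. The 7 regulators and the other formative genes lie mostly to the right of 0 and the epithelial genes mostly to the left.

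Of 11 naive pluripotency genes, 10 were tested and 1 was called between the suffixes, *Klf2*, a Krüppel-like factor that was higher in b2 by 1.15 (edgeR adjusted p = 0.00246). This stands beside 24.6% of all genes called. The other 9 were not called, 1 of them was lower in b2 at an unadjusted p under 0.05, and the median log2 fold change was 0.21. Between KO and WT edgeR called 0 of the 10 naive genes, with 1 at an unadjusted p under 0.05, and the median was 0.11. This was *Nanog*, lower in KO without overlap in CPM (−0.55, edgeR unadjusted p = 0.0154, adjusted p = 0.751). With the suffix as a block *Nanog* gave −0.54, again without a call (edgeR unadjusted p = 0.00708, adjusted p = 0.239). The naive genes summed to 47.7 to 69.2 TPM in b2 lines and 50.9 to 62.5 TPM in b1 lines. The 5 core pluripotency genes summed to 841 to 870 TPM in b2 lines and 752 to 803 TPM in b1 lines, and *Sall4* was the only one called. *Sall4* alone took 99.4 to 110 TPM of that sum in b2 lines and 50.6 to 55.7 TPM in b1 lines.

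Markers of other cells that the cultures could hold were set beside these results. The ESC lines had been kept on feeder cells before the adaptation. Of 8 feeder fibroblast markers, 5 stayed under 1 TPM in every library, among them *Postn*, which had no counts. The list summed to 5.59 to 17.5 TPM in b2 lines and 20.0 to 30.1 TPM in b1 lines, without overlap, and *Thy1* was the one gene called (−0.95, edgeR adjusted p = 0.0474). That call was lost when any single line other than WT12 was left out (adjusted p of 0.0603 to 0.135). *Thy1* alone took 3.63 to 15.9 TPM of that sum in b2 lines and 18.002 to 28.3 TPM in b1 lines. *Col1a2* (1.17, edgeR adjusted p = 0.0566) and *Dcn* (0.48, adjusted p = 0.229) had the opposite sign and were not called, and *Col1a2* in CPM lay higher in all b2 lines than in all b1 lines. The 8 extraembryonic endoderm markers, of which *Ttr* had no counts, summed to 2.88 to 4.56 TPM in b2 lines and 1.81 to 3.05 TPM in b1 lines, with *Foxa2* higher in b2 (1.83, edgeR adjusted p = 0.0103). *Foxa2* averaged 0.188 TPM, a low level, and the other 4 markers tested were not called. In every library 7 of the 8 markers stayed under 1 TPM. *Dab2* alone took 1.88 to 3.82 TPM of that sum in b2 lines and 1.13 to 2.39 TPM in b1 lines. The 5 trophoblast markers summed to 1.44 to 3.80 TPM in b2 lines and 2.88 to 3.21 TPM in b1 lines. The 5 neural crest markers, listed because *Foxd3* is also a neural crest factor, summed to 0.674 to 0.969 TPM in b2 lines and 0.619 to 1.09 TPM in b1 lines. Of 5 neural ectoderm markers *Sox1* was higher in b2 (1.94, edgeR adjusted p = 0.0183), and the list summed to 1.20 to 2.23 TPM in b2 lines and 1.03 to 1.97 TPM in b1 lines. The *Sox1* call was lost without KO9, KO15, WT7, WT17 or WT34 (adjusted p of 0.0532 to 0.0656). The part of these markers, and of the mitochondrial share, in the differences between the suffixes was not tested. In bulk RNA-seq, fewer cells of a type and less RNA per cell cannot be told apart.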

How the data were processed

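EpiLCs of 4 *Tet1* KO and 4 WT lines were profiled by stranded single-end mRNA-seq. By the methods and the submitters' processing notes, the authors used Trim Galore 0.6.4 for trimming, Salmon 0.14.1 (build mm10) for quantification and tximport for gene-level values. The authors deposited estimated counts and, separately, TPM, and 205 of 54281 genes had no symbol. The estimated counts were rounded for the test, which altered the 27.8% of values that were not whole.

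edgeR 4.0.16 (R 4.3.3) kept 17272 genes by filterByExpr, normalized by TMM and tested KO against WT, and b2 against b1 with genotype in the model (quasi-likelihood test, Benjamini-Hochberg over all genes tested, adjusted p under 0.05). Fold changes are on the log2 scale, and SEs come from the test statistic. CPM use the TMM-scaled library size, and spread, line differences and likeness were taken on log2(CPM + 0.5). At these totals a gene under 1 CPM rests on few counts. Pairwise correlations of log2(CPM + 1) between libraries, across genes, ran from 0.967 to 0.991, and no 2 libraries held the same values. Promoter windows came from RefSeq (GRCm38.p6) and positions from GENCODE M21, to which 53544 gene IDs matched with their version. The methods name release 23, which was not used here. On counts simulated from these libraries, edgeR recovered 38% of genes changed 1.5-fold and 60% of those changed 2-fold for KO against WT (16936 genes, 8 false among 146 calls). For b2 against b1 it recovered 34% and 64% (16924 genes, 4 false among 136 calls). The simulated counts held no difference between the suffixes, and their spread was estimated with the suffix in the model. The test of KO against WT left the suffix out, so its simulated recovery does not describe that test on the real libraries.

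The 7 genes and all lists were chosen with earlier results of these data known. Genes outside the 7 are named by rule: *Tet1*, the 2 genes most like each member called between the suffixes, and, of each list, any gene called between KO and WT and up to 4 genes with the smallest p among those called between b2 and b1. *Aph1a*, for its overlap, *Postn* and *Ttr*, for having no counts, and *Col1a2* and *Dcn*, for their sign, were picked once the values were known. So were *Dab2*, for its share of a summed level, and *Epcam*, *Pou3f2*, *Lef1* and *Etv4*, for their p with the suffix as a block. *Slc7a3*, *Igfbp2*, *Trh*, *Otx1* and *Nanog* were picked in the same way, for their unadjusted p between KO and WT. Alternatives were DESeq2's size factors, unscaled library size, no filter, a minimum of 10 counts per library, DESeq2 1.42.0, limma 3.58.1 on log2(TPM + 1) and log2(TPM + 0.1), each line left out, the suffix as a block, each suffix or genotype alone, and an absolute log2 fold change above 1.5.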

Additional observations from a re-analysis of the deposited data

Results flagged for a closer look

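In groups of 4 lines, the value that stood farthest from the other 3 was examined for each named gene, in KO and in WT lines, which made 48 groups. In 4 of them the gap to the nearest other line took nearly the whole range of the group, by Dixon's 95% critical value, which chance alone exceeds in about 1 of 20 groups. *Pou2f2* had 32.0 CPM in WT12, and the other WT lines had 16.99 to 18.5 CPM. *Sox1* had 15.6 CPM in WT34, and the other WT lines had 2.03 to 2.84 CPM. *Thy1* had 6.37 CPM in WT34, against 20.8 to 22.3 CPM in the other WT lines. *Dnmt3a* had 939 CPM in WT34, against 570 to 631 CPM in the other WT lines. WT12 and WT34 are the WT lines of suffix b2.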

How the results depend on the processing

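None of the 7 genes was called between KO and WT under any of the 20 alternatives, which include the suffix as a block. No paired analysis was possible because KO and WT lines share no replicate numbers in the labels and the labels do not pair littermates. With the column suffix as a replicate block, 28 genes were called between KO and WT in place of 7. Other counts for KO against WT were 105 by DESeq2, 2, 3 and 2 by limma with a pseudocount of 1, of 0.1 and without a filter, 3 above the fold change threshold of 1.5, 19 within b1, and 6 to 10 with 1 line left out. For b2 against b1, 4253 genes called became 1587, 1624 and 848 by limma in the same order, 365 above the threshold, 1346 within KO, 450 within WT, and 2655 (without KO9) to 4807 with 1 line left out, with 2763 without WT7. Library size alone gave 1933 higher and 2511 lower, in place of 2359 and 1894. Members called between the suffixes numbered 1 (*Foxd3*) in each limma fit, above the threshold and within WT, and 2 to 3 with 1 line left out. Signs turned for uncalled members. For b2 against b1, *Otx2* had −0.014, −0.018 and −0.014 by limma, *Car14* −0.25, −0.47 and −0.25 by limma and −0.49 within KO, and *Grhl2* −0.028 with library size alone and −0.091 within WT. With 1 line left out, b2 against b1 ran from −0.11 to 0.34 for *Otx2*, −0.78 to 0.48 for *Car14* and −0.057 to 0.11 for *Grhl2*. KO against WT then ran from −0.043 to 0.34 for *Otx2*, −0.58 to 0.11 for *Pou3f1*, −0.33 to 0.024 for *Pou2f2* and −1.27 to 0.32 for *Foxd3*. In the order of levels, leaving out 1 line gave 0.74 to 0.92 for *Otx2* over *Grhl2*, 1.24 to 1.69 for *Sall2* over *Foxd3*, 0.37 to 0.66 for *Grhl2* over *Sall2* and −0.26 to 0.10 for *Pou3f1* over *Otx2*. The causes were not tested, beyond the fewer lines or genes of some alternatives. Among list genes, *Thy1* was lost in 12 of 19 alternatives, *Sox1* in 7 of 17, *Esrp2* in 5, *Dnmt3a* in 4, *Tdgf1*, *Car2* and *Ovol2* in 2 and *Klf2*, *Cgn* and *Cldn4* in 1 of 19, *Sall3* in 2 of 17 and *Foxa2* in 1 of 14. Among the 7 members, *Car14* and *Foxd3* rest on the fewest counts.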
